A study of Mus musculus with 6 samples.

Results

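The nuclear pore complex was followed here through the RNA of 30 of its genes, taken from the 54525 gene rows of the count files by symbol. The list is a set of symbols, with no measured value in its rule, but it was chosen with earlier results of these data known. It covers the scaffold, the central channel, the cytoplasmic and nuclear faces and the membrane ring. All 30 passed the filter on low counts and were tested. RNA was sequenced from wild type (WT) C2C12 cells, a mouse skeletal myoblast line, as 3 libraries of untreated cells in growth medium with fetal bovine serum (D0, myoblasts) and 3 libraries after 5 days in medium with horse serum (D5, myotubes). The question put to the libraries was how gene expression changes as myoblasts become myotubes. C2C12 is a single immortal line, so the libraries stand for this line in culture, and the labels give 3 cultured samples per day without saying whether they came from separate passages. The p-values therefore measure the spread between these samples. Counts on genes ran from 36555048 to 40895840 at D0 and from 25449759 to 25811300 at D5. The 8 myotube markers checked were all higher at D5, by 6.07 to 11.44 on the log2 scale. Of 30 markers of other cell types 12 had at most 3 counts in every library. Of the 12 tested 9 were lower and 2 were higher at D5, beside 40.8% and 42.2% of all genes tested. The 2 were Dmp1 (log2 2.86) and Cdh1 (log2 6.56, with 0, 1 and 1 counts at D0 and 52, 39 and 53 at D5). Some markers were high. Acta2, of smooth muscle, had 107637, 122154 and 112508 counts at D0 and 24080, 26754 and 24660 at D5. Runx2, of osteoblasts, had 4270, 4568 and 4489 at D0 and 1079, 1045 and 1023 at D5. Whether other cell types were present was not tested.

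The pore is the main gate for large molecules between the nucleus and the cytoplasm. Its scaffold is built from the Y complex, which forms the outer rings, and the inner ring, and is held in the envelope by a few membrane proteins. Nucleoporins rich in phenylalanine-glycine repeats fill the channel and bind the transport receptors, while filaments on the cytoplasmic side and a basket on the nuclear side dock cargo and release messenger RNA. Cells that divide take the pore apart and build new ones, whereas in cells that have left the cycle the scaffold is known to be very long-lived. Nup210, a membrane nucleoporin absent from many cell types, is known to be needed for myoblasts to form myotubes.

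The promoters of 4 members are shown because they belong to the 2 genes that rose, Nup210 and Ranbp2, to the gene with the largest fall that has a promoter in the table, Aaas, and to Nup205, whose fall had the lowest adjusted p. Each runs from 250 bases before to 50 bases after the RefSeq start (GRCm38.p6), and capitals mark the bases of any motif searched other than the E-box.
Nup210, chr6:91116777-91117076, minus strand: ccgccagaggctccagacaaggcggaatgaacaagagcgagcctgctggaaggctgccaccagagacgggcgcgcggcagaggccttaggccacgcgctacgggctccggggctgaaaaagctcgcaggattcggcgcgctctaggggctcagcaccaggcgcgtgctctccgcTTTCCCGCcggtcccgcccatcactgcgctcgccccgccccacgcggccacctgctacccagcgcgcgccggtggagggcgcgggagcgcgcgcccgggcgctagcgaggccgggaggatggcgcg
Ranbp2, chr10:58446602-58446901, plus strand: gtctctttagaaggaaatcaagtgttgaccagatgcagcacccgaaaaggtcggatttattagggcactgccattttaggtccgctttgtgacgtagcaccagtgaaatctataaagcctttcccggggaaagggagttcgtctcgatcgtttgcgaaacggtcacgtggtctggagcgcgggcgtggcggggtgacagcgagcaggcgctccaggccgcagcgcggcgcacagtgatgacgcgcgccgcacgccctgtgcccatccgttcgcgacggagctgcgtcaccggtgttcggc
Aaas, chr15:102350710-102351009, minus strand: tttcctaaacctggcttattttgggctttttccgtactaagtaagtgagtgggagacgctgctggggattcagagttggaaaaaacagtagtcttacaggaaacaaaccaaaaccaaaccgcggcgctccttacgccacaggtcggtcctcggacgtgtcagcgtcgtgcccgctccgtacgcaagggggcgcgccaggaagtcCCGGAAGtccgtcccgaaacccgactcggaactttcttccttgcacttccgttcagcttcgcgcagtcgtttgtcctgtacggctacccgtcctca
Nup205, chr6:35177366-35177665, plus strand: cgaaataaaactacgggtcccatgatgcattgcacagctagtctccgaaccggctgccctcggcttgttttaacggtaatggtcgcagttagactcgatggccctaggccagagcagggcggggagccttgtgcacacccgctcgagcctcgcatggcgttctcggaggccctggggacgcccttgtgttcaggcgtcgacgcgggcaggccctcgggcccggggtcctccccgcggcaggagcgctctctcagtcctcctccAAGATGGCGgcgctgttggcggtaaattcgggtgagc
The capitals mark an E2F word in Nup210, an ETS word in Aaas and a YY1 word in Nup205, while Ranbp2 held E-boxes alone. RefSeq windows were found for 25 of the 30 members and not for Nup210l, Nup85, Nup43, Seh1l and Nup35. A member was counted for a motif if any of its windows held it on either strand, and motifs may overlap. Of these 25, 8 held the ETS word CCGGAAG (Aaas, Gle1, Nup107, Nup155, Nup37, Nup54, Rae1 and Sec13), which was present in 8.86% of all 32851 windows and 16.6% of the 13593 windows of tested genes. YY1 (AAGATGGCG) was found in 4 members, Nup188, Nup205, Nup50 and Nup88, against 1.40% of all windows and 2.80% of those of tested genes. NRF1 (CGCATGCG) was found in 3 members, Nup107, Nup50 and Nup62, against 1.87% and 3.61%. Members with the CHR words TTTGAA or TTCGAA numbered 6, with CCAAT 9 and with an E-box (CANNTG) 13, beside 14.0%, 37.6% and 64.2% of the windows of tested genes. An E2F word (TTTGGCGC, TTTCGCGC, TTTCCCGC or TTTGCCGC) was present only in Nup210 among these 25, and a MEF2 match only in Nup160, beside 3.75% and 1.96% of the windows of tested genes. These matches describe letters in the window and were tested for nothing else.

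Most pore genes were lower in myotubes. Of the 30 members 25 fell, 2 rose (Nup210 and Ranbp2) and 3 did not pass the test (Nup93, Gle1 and Sec13) in edgeR's quasi-likelihood test with Benjamini-Hochberg adjustment over 16290 genes at 0.05. Over all genes tested 40.8% were lower and 42.2% were higher at D5. The median log2 fold change of the members was -0.88, beside 0.0022 for all genes. A fall of at least 2-fold was seen in 14 members, beside 16.0% of all genes tested, and the other 11 fell by less. A rise of at least 2-fold was seen in Nup210 alone, beside 19.3%. In CPM (counts scaled to library size with TMM factors), the 3 D5 values all lay below the 3 D0 values for 25 members and above them for 2, beside 41.1% and 42.2% of all genes. The summed level of the 30 genes per exonic length, on the TPM scale on which all genes of a library share a fixed total, was 1680 ± 30.6 at D0 and 1006 ± 29.0 at D5 (SD, n = 3, as for every value after ± from here on), which is 59.9% of the D0 sum. In these bulk cultures fewer cells of a type and less RNA per cell cannot be told apart. Scaled to the ERCC spike-ins, which took from 0.720% to 2.09% of the counts and varied more at D5, 16 members were lower and 1 (Nup210) was higher, beside 23.0% of all genes lower and 11.1% higher, with a median of -1.45 beside -0.58 for all genes. The 9 that lost their call there were Nup37, Seh1l, Ahctf1, Nup98, Nup88, Nup214, Rae1, Nup153 and Tpr, all still below 0.

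**Figure D1:**
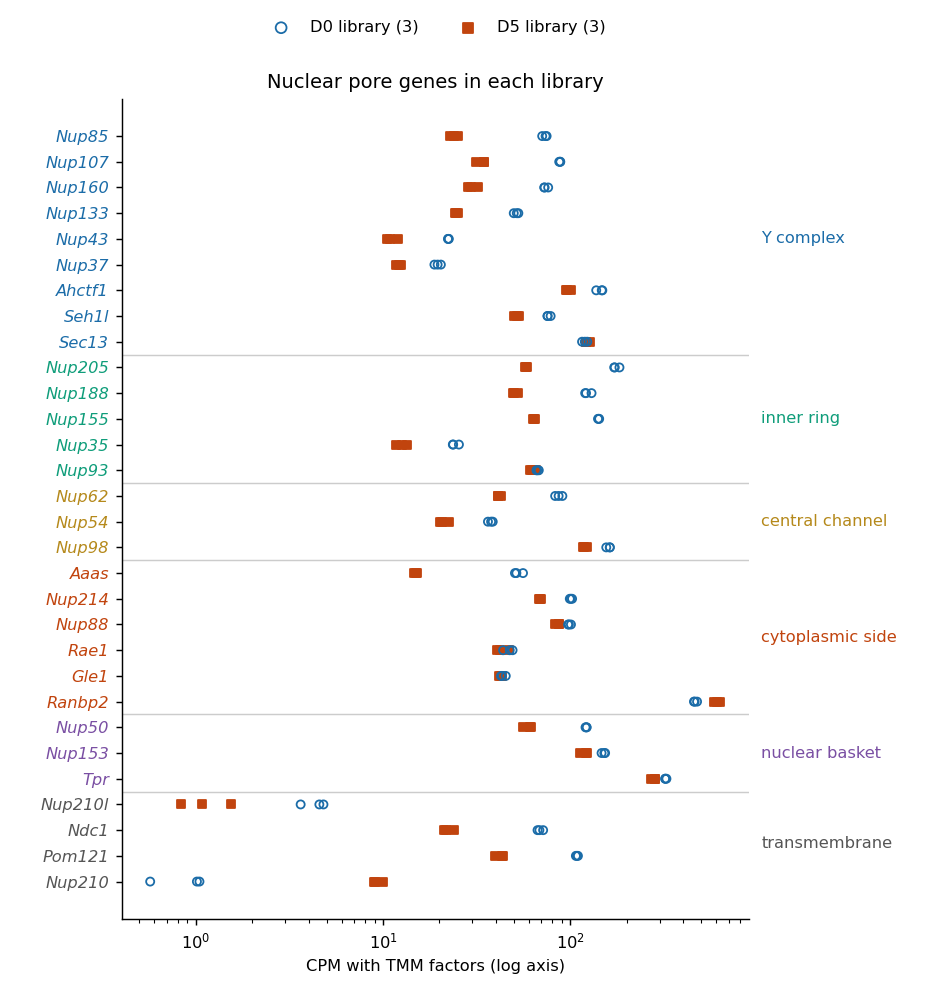
CPM with TMM factors on a log axis for each of the 30 pore genes, with 1 open circle per D0 library and 1 filled square per D5 library, grouped by place in the pore. For Nup210 and Ranbp2 the 3 squares lie to the right of the circles, while for 25 genes they lie to the left, and those of Sec13, Gle1 and Rae1 overlap with them.

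The Y complex, the Y-shaped unit of the outer rings, had 8 of its 9 genes lower and 1 without a call, with a median log2 fold change of -1.01. Nup85, of the short arm of the Y, fell most, with CPM of 73.7, 74.6 and 70.7 at D0 and 22.7, 25.1 and 24.0 at D5. The D5 level was 32.8% of D0 (log2 fold change -1.61, SE 0.047, adjusted p = 8.2e-24). Nup107, of the stem, had CPM of 87.2, 88.2 and 88.3 at D0 and 34.5, 34.5 and 31.2 at D5 (log2 fold change -1.39, SE 0.043, adjusted p = 4.3e-23). The D5 libraries of both genes were far below their D0 libraries, with no overlap. Nup160, of the long arm, had CPM of 72.5, 76.1 and 72.8 at D0 and 32.2, 29.5 and 28.3 at D5 (log2 fold change -1.30, SE 0.046, adjusted p = 2.0e-21). CPM of Nup133 was 49.8, 52.7 and 51.7 at D0 and 24.4, 25.1 and 24.1 at D5 (log2 fold change -1.07, SE 0.047, adjusted p = 3.5e-19). Genes annotated on the opposite strand cover 10.4% of the Nup133 exons, and whether the counting used strand is not given in the sources used here. The small propeller protein Nup43 had 832, 943 and 898 counts at D0 and 272, 296 and 261 at D5, with mean CPM of 22.3 ± 0.110 at D0 and 11.1 ± 0.798 at D5 (SD, n = 3, log2 fold change -1.01). Nup37, another propeller protein of the Y, had CPM of 20.3, 19.6 and 18.8 at D0 and 12.4, 12.2 and 11.7 at D5 (log2 fold change -0.69). Both fell, and neither overlapped between days. Seh1l, which also serves the GATOR2 complex of nutrient sensing, fell less, with CPM of 75.4, 78.4 and 75.6 at D0 and 53.1, 51.9 and 50.1 at D5 (log2 fold change -0.56). Ahctf1 (ELYS), which brings the Y complex to chromatin at the end of mitosis, had CPM of 137, 148 and 147 at D0 and 94.7, 100.2 and 96.3 at D5 (log2 fold change -0.57). The fall was smaller in Seh1l and Ahctf1 than in Nup85, Nup107, Nup160 and Nup133, a difference read from the fitted values and not tested.

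Sec13, a Y complex protein that is also part of the COPII coat of secretory vesicles, did not pass the test. Its CPM was 119, 123 and 115 at D0 and 122, 127 and 121 at D5. The days overlapped, and the log2 fold change was 0.045 (95% interval -0.027 to 0.12, adjusted p = 0.239), a value that was below 0 when scaled to total counts (-0.040), ERCC spike-ins (-0.51) or with an offset for GC content and length (-0.25, called lower with adjusted p = 1.9e-07, or -0.014 with no call once that offset was centred on 0 in each library). In TPM, which sets levels against all transcripts per length, it was 129.6 ± 3.92 at D0 and 119.9 ± 2.34 at D5. Within a library the ratio of Sec13 to Nup107 in TPM, chosen after the values were seen, was 1.64 ± 0.055 (SD, n = 3) at D0 and 4.46 ± 0.22 at D5.

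In the inner ring, the scaffold next to the membrane, 4 of 5 genes were lower and Nup93 had no call, with a median of -1.14. CPM of Nup205, one of the largest scaffold proteins, was 172, 183 and 171 at D0 and 57.7, 57.1 and 58.7 at D5. All 3 D5 values were well below the D0 values, at 32.9% of them in the fit (log2 fold change -1.60, SE 0.037, adjusted p = 2.4e-26). Nup188, its paralogue in the ring, had CPM of 119.9, 129.7 and 121 at D0 and 49.9, 52.3 and 49.1 at D5 (log2 fold change -1.29, SE 0.040, adjusted p = 5.2e-23). Gm28038 on the same strand covers 4.55% of the Nup188 exons and Gm14471 on the opposite strand 7.88%. Nup155, which joins the inner ring to the membrane layer, had CPM of 141, 142 and 140.5 at D0 and 64.7, 64.2 and 63.1 at D5 (log2 fold change -1.14, SE 0.035, adjusted p = 3.5e-23). These 3 genes had no overlap between days. Nup35, a small membrane-binding member of the ring, had CPM of 23.6, 25.4 and 23.7 at D0 and 13.5, 12.6 and 11.7 at D5 (log2 fold change -0.94). Of the 50-base stretches of Nup35 transcripts 39.2% occur in other genes, chiefly in the copy Gm4353, so its level is uncertain. Gm4353 itself, looked up after its overlap was seen, had 102, 107 and 112 counts at D0 and 28, 42 and 32 at D5.

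Nup93, the inner ring protein that anchors the central channel, stood apart from its ring partners. CPM was 65.9, 66.5 and 67.8 at D0 and 65.7, 60.7 and 62.4 at D5. Every D5 library was below every D0 library, but by little, and the log2 fold change was -0.084 (95% interval -0.17 to -0.0032) with an adjusted p of 0.0507. It passed the threshold as lower with upper-quartile scaling (log2 -0.10, adjusted p = 0.0225), total counts (-0.17), no filter on low counts (-0.14) and the GC and length offset (-0.31, or -0.070 with adjusted p = 0.0846 once that offset was centred on 0 in each library), and without D0 replicate 1 (adjusted p = 0.0359) or D5 replicate 1 (0.0162). The ratio of Nup93 to Nup205 in TPM was 0.832 ± 0.035 (SD, n = 3) at D0 and 2.38 ± 0.097 at D5. Against Nup188 it was 0.793 ± 0.036 and 1.83 ± 0.12. Both ratios were chosen after the values were seen, and they restate in TPM the unequal changes already given for these genes.

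All 3 genes listed under the central channel were lower, with a median of -0.83. Each member was listed under a single place, and Nup98 was counted here alone. Nup62, a repeat protein at the core of the channel, had CPM of 90.6, 82.9 and 86.5 at D0 and 41.0, 42.5 and 41.2 at D5 (log2 fold change -1.06, SE 0.042, adjusted p = 3.0e-20). Nup54, its partner, had CPM of 37.7, 36.3 and 38.5 at D0 and 22.5, 20.2 and 20.7 at D5 (log2 fold change -0.83). Of the 50-base stretches of Nup54 13.9% occur in other genes. Nup98, a mobile repeat protein also found away from the pore at active genes, had CPM of 155, 162 and 162 at D0 and 123, 119 and 117 at D5 (log2 fold change -0.42). Of the channel genes it was the one nearest to its D0 level, at 74.6% of it.

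On the cytoplasmic side 4 of 6 genes fell, 1 rose and 1 had no call, and the median was -0.16. The widest spread of any place except the membrane ring was seen here. Aaas (ALADIN), which is mutated in triple A syndrome, fell most, with CPM of 55.8, 50.6 and 51.5 at D0 and 14.7, 15.1 and 15.2 at D5. The D5 libraries agreed closely and held 28.5% of the D0 level (log2 fold change -1.81, SE 0.054, adjusted p = 1.4e-23). Nup214 and Nup88 form the export platform of the pore. Nup214 had CPM of 99.3, 101 and 102 at D0 and 67.7, 69.7 and 69.1 at D5 (log2 fold change -0.55), and Nup88 98.2, 101 and 97.2 at D0 and 86.9, 86.8 and 82.4 at D5 (log2 fold change -0.21). Both were lower in every D5 library, Nup88 by a small step. Rae1, an mRNA export factor that binds Nup98, had CPM of 47.4, 49.1 and 43.7 at D0 and 40.8, 46.7 and 42.0 at D5, so that D5 replicate 2 lay within the D0 range. Its log2 fold change was -0.11 (adjusted p = 0.0383), and the call was lost in DESeq2 (adjusted p = 0.116) and without D0 replicate 1 (0.0657), D0 replicate 2 (0.154), D5 replicate 1 (0.218) or D5 replicate 3 (0.142), as well as with the ERCC spike-ins (0.342). Gle1, which activates the RNA helicase that releases exported messenger RNA, had CPM of 42.6, 45.2 and 43.2 at D0 and 41.7, 43.3 and 42.4 at D5. The days overlapped (log2 fold change -0.04, 95% interval -0.13 to 0.05, adjusted p = 0.401), and it was called lower with total counts (-0.12) and with the GC and length offset (-0.34, or -0.11 once centred).

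Ranbp2, the giant protein of the cytoplasmic filaments and a SUMO ligase, was higher in myotubes. CPM was 457, 474 and 460.4 at D0 and 631, 603 and 587 at D5. Every D5 library was above every D0 library, by 0.39 on the log2 scale (SE 0.033, adjusted p = 5.3e-12), which is 131% of D0, whereas scaled to the ERCC spike-ins it was -0.17 (adjusted p = 0.818). The value of -0.17 lay above the median of all genes under the spike-ins, -0.58, and in the single D5 libraries set against the D0 mean it was -0.23, 0.44 and -1.15. Ranbp2 had the highest TPM of the 30 genes on both days, 137 ± 4.01 at D0 and 161 ± 8.79 at D5. It made up 8.14% of the summed TPM of the members at D0 and 16.0% at D5. Together the cytoplasmic side went from 21.9% to 30.4% of that sum.

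The nuclear basket had all 3 genes lower, with a median of -0.34. Nup50, a mobile protein that helps to take apart import complexes, had CPM of 120.4, 122 and 122 at D0 and 61.4, 55.7 and 60.9 at D5 (log2 fold change -1.03, SE 0.039, adjusted p = 6.4e-21). Nup153, which anchors the basket, had CPM of 147, 152 and 153 at D0 and 121, 123 and 113 at D5 (log2 fold change -0.34). Tpr, the coiled-coil protein that forms the basket filaments, had CPM of 326, 321 and 321 at D0 and 282, 268 and 282 at D5 (log2 fold change -0.22). All were lower in every D5 library, and the steps of Nup153 and Tpr were small beside that of Nup50. Scaled to the ERCC spike-ins, Nup153 was at -0.89 (adjusted p = 0.176) and Tpr at -0.79 (adjusted p = 0.228).

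**Figure D2:**
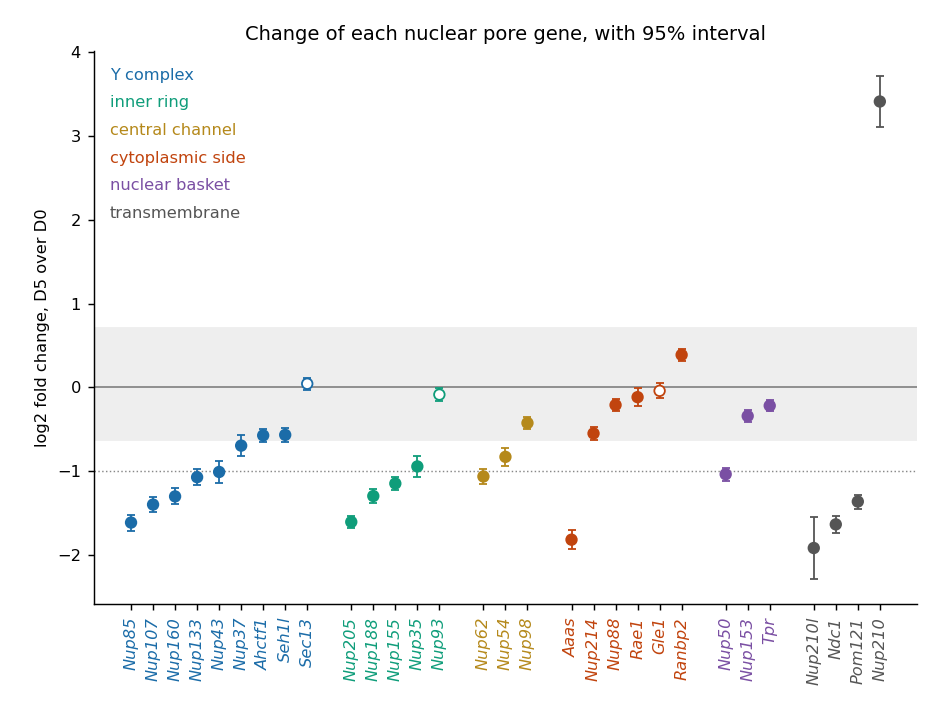
Log2 fold change of each pore gene, D5 over D0, from edgeR, with 95% interval, ordered within its place in the pore. Filled points passed the adjusted threshold of 0.05 and open points did not, the shaded band holds the middle 50% of all 16290 genes tested, and the dotted line marks a 2-fold fall. Nup210 stands alone at 3.41 and Ranbp2 lies at 0.39 (-0.17 when scaled to the ERCC spike-ins).

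The membrane ring held both the largest rise and the largest fall of the list. Of its 4 genes 3 were lower and 1 was higher, with a median of -1.49. Ndc1, which is needed to insert new pores into the envelope, had CPM of 66.8, 68.3 and 71.5 at D0 and 24.0, 21.6 and 21.1 at D5 (log2 fold change -1.63, SE 0.050, adjusted p = 2.7e-23). Pom121, a membrane protein that acts early in pore assembly, had CPM of 107, 108 and 109.7 at D0 and 39.7, 43.1 and 43.9 at D5 (log2 fold change -1.36, SE 0.041, adjusted p = 1.9e-23). Both lay well below D0 in all D5 libraries. Nsun5 on the opposite strand covers 11.9% of the Pom121 exons. The summed TPM of the 4 genes at D5 was 34.5% of that at D0, the lowest share of any place, followed by 46.7% in the inner ring, 50.1% in the central channel, 56.4% in the Y complex, 64.7% in the basket and 83.2% on the cytoplasmic side. This order was not tested, and single abundant genes weigh on it. Ranbp2 alone held 137 of 368 TPM on the cytoplasmic side at D0 and 161 of 306 at D5. In the Y complex Sec13 held 129.6 of 485 TPM at D0 and 119.9 of 274 at D5. In CPM the sum of the cytoplasmic side went the other way. It was 798 to 820.4 over the D0 libraries and 838 to 883 over the D5 libraries. Of that side's 6 genes 4 were called lower and only Ranbp2 was called higher, with mean CPM of 464 at D0 and 607 at D5.

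Nup210 (gene on the minus strand of chromosome 6, 91013068 to 91116829, GRCm38) rose from a low level. It had 38, 44 and 23 counts at D0 and 225, 246 and 226 at D5. In CPM this was 1.01, 1.05 and 0.571 at D0 and 8.96, 9.98 and 9.08 at D5. The days were far apart, while at D0 replicate 3 lay below the other two. The level was 10.6-fold higher at D5 (log2 fold change 3.41, SE 0.15, 95% interval 3.10 to 3.71, adjusted p = 2.9e-19). It was higher under every scaling, at 2.88 with the ERCC spike-ins, and in each D5 library set against D0 by spike-ins (2.70, 3.60 and 1.91). No 50-base stretch of its transcripts occurs in another annotated gene. Per length it was still next to the lowest of the 30 at D5, with TPM of 0.289 ± 0.0852 at D0 and 2.77 ± 0.126 at D5.

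Nup210l, the paralogue of Nup210, moved the other way. It had 136, 202 and 184 counts at D0 and 21, 38 and 27 at D5. CPM was 3.63, 4.80 and 4.57 at D0 and 0.836, 1.54 and 1.09 at D5, and no D5 library reached the D0 range (log2 fold change -1.91, SE 0.18, adjusted p = 5.5e-11). Leaving out single libraries gave values from -2.17 to -1.72. In TPM it was 2.63 ± 0.408 at D0 and 0.624 ± 0.183 at D5. The ratio of Nup210 to Nup210l in TPM was 0.153, 0.119 and 0.0683 at D0 and 5.85, 3.54 and 4.57 at D5, so the order of the paralogues was exchanged in all libraries. Neither gene shares a 50-base stretch with another. Counts as low as 21 make these the least precise of the members, with SE of 0.15 and 0.18 beside 0.032 to 0.063 for the others.

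The order of levels per length changed below the top. Ranbp2, Sec13 and Tpr held ranks 1, 2 and 3 on both days, at 137, 129.6 and 106 TPM at D0 and 161, 119.9 and 82.0 at D5. Nup62 went from rank 4 to 7, Nup50 from 5 to 9, Nup107 from 6 to 12 and Nup205 from 11 to 20. Rae1 went from rank 14 to 5 and Nup93 from 15 to 6. In TPM the D5 values of all members except Nup210 and Ranbp2 lay below the whole D0 range, Sec13, Gle1 and Rae1 included, beside 47.7% of all genes below and 35.9% above in TPM.

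**Figure D3:**
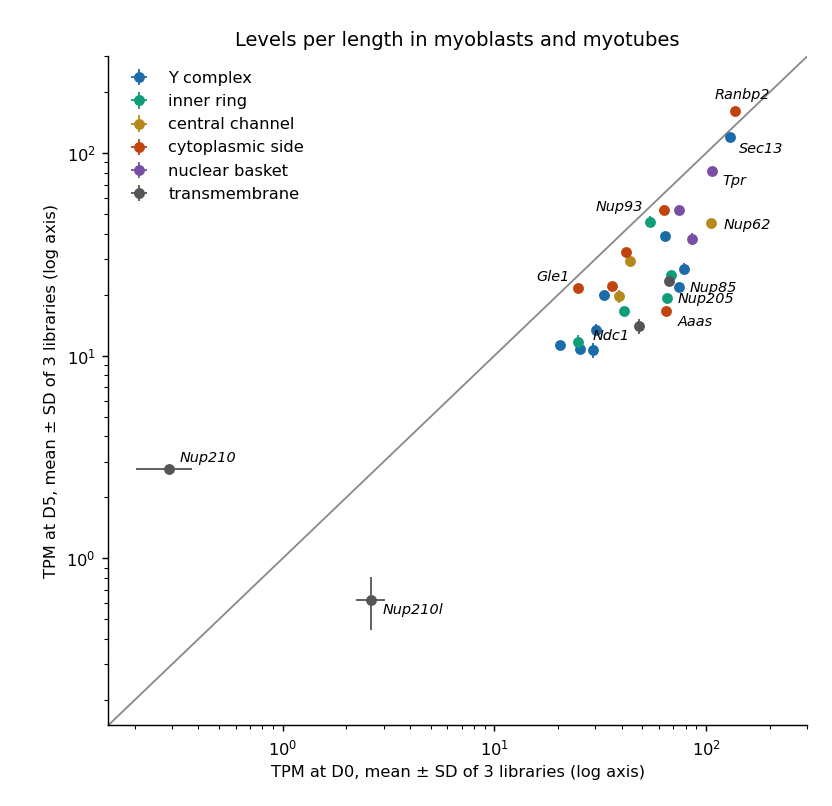
Mean TPM of each pore gene at D5 against D0, with SD over 3 libraries per day, on log axes, coloured by place. Points under the diagonal had a lower mean at D5, and only Nup210 and Ranbp2 lie above it, while Nup210 and Nup210l lie apart at the low end on opposite sides.

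Genes outside the members whose 6 log2 CPM values were nearest to those of Nup210, by Euclidean distance with 0.5 CPM added, included Etv1 (0.316), Cacnb2 (0.481), Fam129a (0.481) and Mamdc2 (0.512). They were picked on these values, so their rise at D5 follows from the choice. Of the genes described as working with Nup210 in muscle, Mef2c, a muscle transcription factor, had a CPM of 0.633 ± 0.0498 at D0 and 159 ± 7.45 at D5 (log2 7.96, adjusted p = 1.7e-36), and Trip6, a LIM protein of focal contacts, had 56.4 ± 1.18 at D0 and 30.8 ± 0.846 at D5 (log2 -0.87, adjusted p = 1.8e-17).

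The genes of nuclear transport that work with the pore were lower in part. Of 52 listed genes 48 were tested, of which 35 fell, 5 rose and 8 did not pass, with a median of -0.45, beside 40.8% lower and 42.2% higher over all genes tested. All 6 genes of the Ran cycle fell (median -1.40), led by Ranbp1 (log2 -2.12, CPM 108 ± 2.72 at D0 and 24.8 ± 0.491 at D5), a co-activator of RanGAP, and Rangap1 (log2 -1.56), the GTPase activator itself. All 7 exportins fell (median -0.74), with Xpo1 (CRM1), the main protein exporter, at log2 -1.57 and Xpot, the tRNA exporter, at log2 -0.89. Of 17 importins tested 10 fell, 4 rose and 3 had no call (median -0.16). Within the importins the alpha adaptors diverged. Kpna2 fell (log2 -2.27, CPM 188 ± 10.7 at D0 and 38.9 ± 0.976 at D5), whereas Kpna1 (log2 1.15, CPM 92.8 ± 1.49 at D0 and 206 ± 13.5 at D5) and Kpna6 (log2 0.43, but -0.14 with the ERCC spike-ins) rose. Kpnb1, the importin beta that carries the adaptors, fell (log2 -1.09). Of 15 mRNA export genes 9 fell, 1 rose and 5 had no call (median -0.43). Alyref, an adaptor that loads the exporter, fell (log2 -1.50), as did Nxt2 (log2 -1.08), a partner of that exporter, while Ddx19b, an RNA helicase of the cytoplasmic face, rose (log2 0.74, CPM 15.4 ± 0.0836 at D0 and 25.8 ± 0.783 at D5). Its paralogue Ddx19a, named after its values were seen, fell (log2 -0.77, CPM 45.8 ± 0.780 at D0 and 26.9 ± 3.34 at D5). Scaled to the spike-ins, 5 of 6 Ran cycle genes, 4 of 7 exportins, 4 of 17 importins and 6 of 15 mRNA export genes were lower. Over all genes tested 23.0% were lower and 11.1% were higher under that scaling, and the importin count lay near that share. None of the 4 lists held a gene called higher, with Kpna1 at 0.61 (adjusted p = 0.373) and Ddx19b at 0.19 (adjusted p = 0.802).

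Of 6 other pore genes 3 were tested and all fell, with Senp1, a SUMO protease docked at the pore, at log2 -1.31 and Nupl2 (Nup42), a docking site for Gle1, at log2 -0.42. Scaled to the spike-ins only 1 of the 3 was called lower, Senp1 (-1.87, adjusted p = 0.0024), while Nupl2 was at -1.01 (adjusted p = 0.124). Nupl1 (Nup58), a further protein of the Nup62 complex, had at most 1 count in any library and was not tested. Its annotated exons share 48.8% of their length with Gm49336 on the same strand, and RefSeq places Nupl1 on chromosome 14 from 60205284 to 60251479 where GENCODE places Gm49336 from 60205282 to 60251507. Gm49336, named after its values were seen, had 2314, 2583 and 2437 counts at D0 and 1792, 1734 and 1600 at D5 (log2 fold change 0.17, SE 0.041, adjusted p = 5.6e-04 for higher, in CPM, while its TPM overlapped between days). Which transcripts these counts stand for cannot be told apart in gene-level counts.

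All 12 genes of proliferation fell, beside 40.8% of all genes tested. Their median was -5.07, with Bub1 at log2 -5.65 and Plk1 at log2 -5.52. Whether proliferation had a part in the fall of the pore genes was not tested. Of the myoblast markers Myod1, Myf5 and Pax7 were lower and Des was higher.

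**Figure D4:**
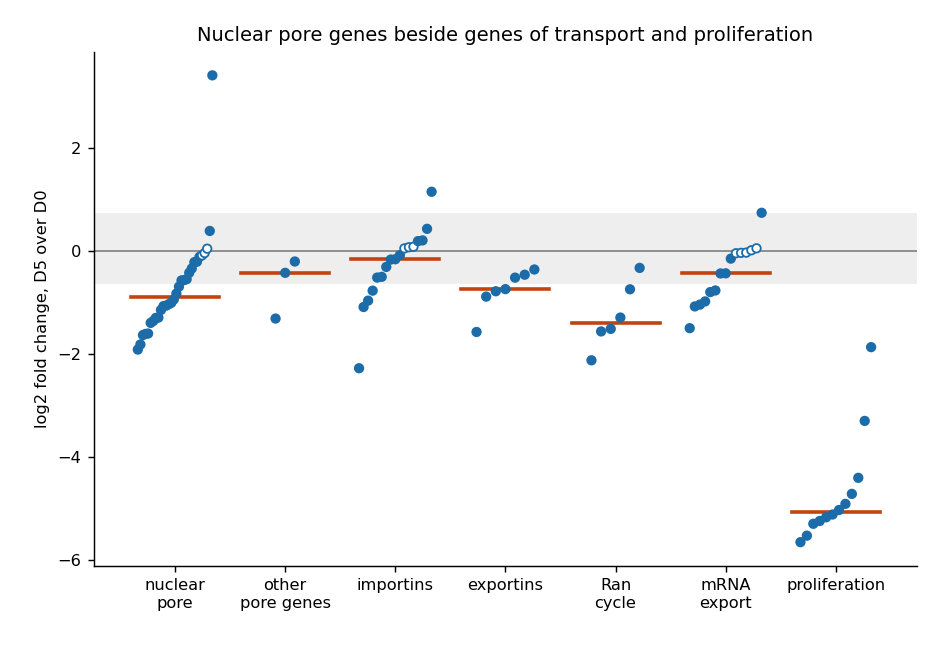
Log2 fold change, D5 over D0, of each tested gene of the pore, of other pore genes, importins, exportins, the Ran cycle, mRNA export and proliferation, with filled points past the adjusted threshold of 0.05 and a bar at each median. The shaded band holds the middle 50% of all genes tested, and the medians run from -0.16 for the importins to -1.40 for the Ran cycle and -5.07 for proliferation, beside -0.88 for the pore.

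A change of library size shifts every log2 fold change by nearly the same amount. Total counts and the ERCC spike-ins therefore moved the members nearly together with all other genes, which tests nothing about the members. The GC and length offset, which is set gene by gene, did so less evenly. Under that offset the median of all genes was -0.23, while Nup210 went from 3.41 with TMM to 2.88 and Ranbp2 from 0.39 to 0.31. Once it was centred on 0 in each library, Nup210 was at 3.12, Ranbp2 at 0.55 and the median of all genes at 0.0050. The median of the members minus the median of all genes was -0.89 with TMM, -0.89 with total counts, -0.87 with the ERCC spike-ins and -0.79 with the GC and length offset. The plot of scalings shows the lines nearly parallel from TMM to total counts and lower values at the spike-ins than with TMM. Under the spike-ins single D5 libraries had member medians of -1.47, -0.83 and -2.42.

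**Figure D5:**
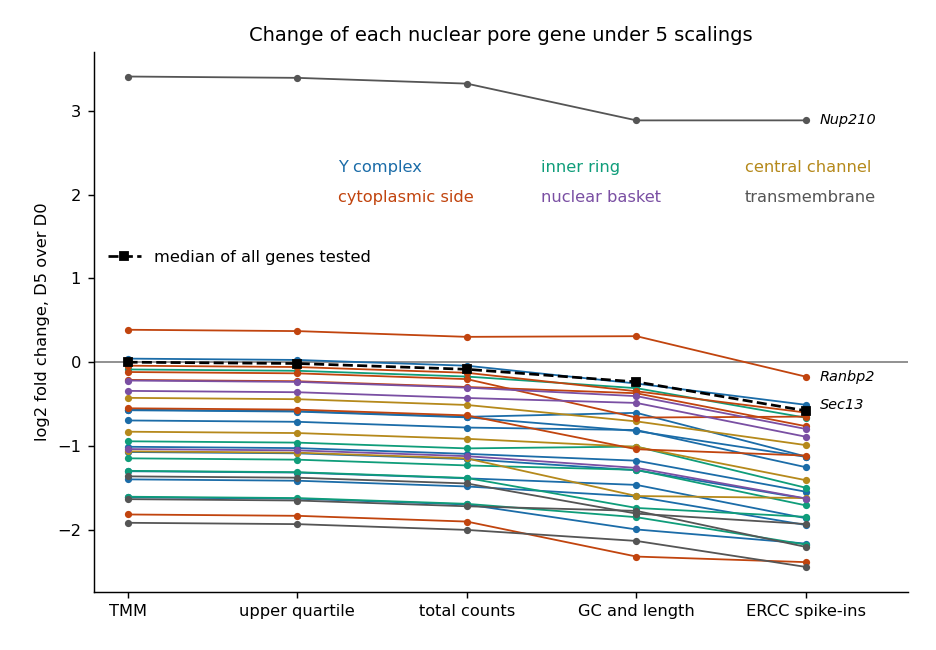
Log2 fold change of each pore gene, D5 over D0, under 5 scalings, with lines coloured by place and the median of all genes dashed. Under the ERCC spike-ins the median of all genes moved to -0.58 and all members except Nup210 lay below 0, Ranbp2 (-0.17) and Sec13 (-0.51) included.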

How the data were processed

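RNA was measured in 6 libraries of C2C12 cells, 3 at D0 and 3 at D5. The deposited values are whole-number counts per gene, made by the authors with featureCounts on mm10 (GRCm38) and not normalized. The labels and the study's methods name different aligners, and the annotation release and strand setting are not given in the sources used here. The deposited columns also held 92 ERCC spike-in rows and an unnamed row that equalled its column's total (50% of the column), and neither entered library sizes or tests. Gene rows matched GENCODE M21 in 99.8% of cases, which gave positions and exonic lengths.

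Counts were fitted in edgeR 4.0.16 (R 4.3.3) with TMM factors, filterByExpr and the quasi-likelihood test of D5 against D0. P-values were adjusted by Benjamini-Hochberg over 16290 genes. The fits were tried on simulated counts in which, unlike here, most genes did not change. TPM was computed from exonic length, with no test. Alternatives were DESeq2 1.42.0 (the submitters' processing notes name DESeq2 1.6.3), other scalings, filters, libraries left out, a replicate block and an offset for GC and length (mgcv 1.9.3), also centred on 0 in each library, a version chosen after seeing the data. Replicate pairs differed by more than sampling noise (chi-square per degree of freedom 2.28 to 3.71).

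The members and lists were chosen with earlier results of these data known. Named were all members, up to 2 rises and 2 falls per transport list that did not overlap between days, Mef2c, Trip6, Nup58 and Nup42, and the 5 genes nearest to Nup210, of which 1 is not reported here. Promoter windows came from RefSeq. Protein sequences were not used here, so repeats were not counted.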

Additional observations from a re-analysis of the deposited data

How the results depend on the processing

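Outside the spike-in scaling few calls changed. The number of members lower at D5 was 24 with DESeq2, 26 with upper-quartile scaling, 27 with total counts, 26 without a filter, 25 with at least 10 counts in every library and 24 to 25 when single libraries were left out, and 2 members were higher in each of these. Scaling to the ERCC spike-ins left 16 lower, 1 higher and 5560 genes past the threshold beside 13510 with TMM, with 67.4% of the calls lower beside 49.2%, and its median over the members was -1.45. That median was -0.97 with total counts and -0.93 to -0.85 without single libraries, which left 13236 to 13599 genes past the threshold. An offset for GC content and length gave a median of -1.02 and, as first run, also shifted all genes by -0.23, so that 61.0% of the calls were lower and 28 members were. The same offset centred on 0 in each library, chosen after seeing the data, gave a median of -0.78 and 26 members lower. Sec13 was above 0 in the main analysis and below 0 with total counts (-0.040), no filter (-0.0086), the spike-ins (-0.51) and the offset (-0.25, adjusted p = 1.9e-07, centred -0.014), and Ranbp2 was below 0 with the spike-ins (-0.17). The causes were not tested.

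Replicate numbers were not taken to pair the samples. The correlations of same-numbered deviations were low, at 0.027, 0.104 and 0.047, but every sample correlated best with its own number. Whether the numbers pair the samples was therefore not settled. With the replicate block 13558 genes and 26 members lower passed, the addition being Nup93 (adjusted p = 0.0391). With the block, the offset gave a median of -1.02 and Sec13 -0.25, and centred -0.78 and -0.014. Depth limited Nup210 and Nup210l most.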
